A study of Mus musculus with 6 samples.

Results

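The striated muscle sarcomere genes described here are 10 genes chosen by name: *Tnnt2*, *Actc1*, *Myh6*, *Myh7*, *Tnni1*, *Tnnc1*, *Myl4*, *Myl7*, *Actn2* and *Mylpf*. They were looked up by symbol in the bulk gene count tables of mouse embryonic stem cells (mESCs) and of cardiac precursor cell cultures (CPCCs), which together list 16279 genes. The CPCC table (15519 genes) lists all 10, and the mESC table (13761 genes) lists 6. *Actc1*, *Myh6*, *Myh7* and *Tnnc1* are absent from the mESC table, which holds only genes with at least 10 counts summed over its libraries.

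The series compares 3 libraries of mESCs with 3 libraries of CPCCs. The mESCs were male F1 lines of C57BL/6 x CAST/EiJ, each grown from a separate blastocyst as a single-cell-derived clone in 2i medium with LIF and without feeder cells. The CPCCs were made from those lines through embryoid bodies in ascorbic acid medium, followed by culture with EGF and FGF2, and are mixed cultures rather than sorted cardiomyocytes. Both groups share the F1 strain and sex, and neither carries a gene deletion. The groups differ in medium as well as in differentiation, since 2i holds kinase inhibitors (PD0325901 and CHIR99021) that the CPCC media do not. Libraries are named by their columns, S01 to S03 for mESCs and S04 to S06 for CPCCs, because the columns do not carry the replicate numbers of the labels.

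Sarcomeres are the repeating contractile units of striated muscle. Thick filaments of myosin heavy chains, each carrying an essential and a regulatory light chain, pull on thin filaments of actin that are anchored at the Z-disc by alpha-actinin. Troponin C binds calcium, troponin I blocks the actin-myosin interaction at rest, and troponin T holds the complex on tropomyosin. Early heart muscle uses several isoforms together, and the isoform in use changes between atrium, ventricle and skeletal muscle.

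The mESC libraries held between 6442639 and 6907330 counts, the CPCC libraries between 8468819 and 11436062, and S04 was the deepest. Levels are normalized counts per 1000000 (CPM), and 3 counts in a library corresponded to 0.298 to 0.463 CPM. The 8 pluripotent cell markers summed to 5304 to 5568 CPM in mESCs and 122.2 to 286.3 CPM in CPCCs, and all 8 were lower in CPCCs. The cardiac markers were mixed. *Tbx20* rose and *Mef2c* was listed only for CPCCs, as detailed with the transcription factors. *Nkx2-5*, *Hand1* and *Hand2* were also listed only for CPCCs. In S04, S05 and S06 *Nkx2-5* had 1.59, 0 and 0.917 CPM, *Hand1* 2.19, 0.364 and 1.95 CPM, and *Hand2* 6.76, 1.09 and 1.95 CPM. *Isl1* had 2.59, 1.70 and 1.60 CPM there, against a mean of 0.708 CPM in mESCs (log2 fold change 1.47). *Gata4* went from a mean of 1.43 to 3.46 CPM (1.26). Neither *Isl1* nor *Gata4* passed the edgeR test, and *Tbx5* is not listed for CPCCs. Smooth muscle markers summed to 6336 to 11730 CPM in CPCCs against 15.8 to 22.06 CPM in mESCs. Of 6 endothelial markers, 1 of 2 fitted was lower, 3 were listed only for CPCCs and 1 only for mESCs, and they summed to 14.78 to 29.32 CPM in CPCCs.

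The reference promoters of 4 of the sarcomere genes are shown because these genes mark the extremes of the comparison: *Actc1* and *Tnnt2* had the highest CPCC levels per length, *Mylpf* was the one that fell, and *Myl7* is the light chain gene that took the largest part of the regulatory light chain counts in S04. The sequences are from RefSeq (GRCm38.p6), from 250 bases before to 50 bases after an annotated start. Capitals mark matches, on either strand, to TATAAA, to the MEF2 motif, to the CArG box bound by serum response factor, and to CATTCC, the M-CAT motif. They lie at chr2:114052826-114053125 on the minus strand for *Actc1*, chr1:135836084-135836383 on the plus strand for *Tnnt2*, chr7:127211358-127211657 on the plus strand for *Mylpf*, and chr11:5898733-5899032 on the minus strand for *Myl7*.
Actc1: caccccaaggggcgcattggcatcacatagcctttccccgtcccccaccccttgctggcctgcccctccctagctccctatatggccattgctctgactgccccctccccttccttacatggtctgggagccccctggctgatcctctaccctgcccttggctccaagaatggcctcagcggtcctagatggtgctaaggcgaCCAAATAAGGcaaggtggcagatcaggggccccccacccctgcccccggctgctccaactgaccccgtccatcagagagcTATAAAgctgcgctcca
Tnnt2: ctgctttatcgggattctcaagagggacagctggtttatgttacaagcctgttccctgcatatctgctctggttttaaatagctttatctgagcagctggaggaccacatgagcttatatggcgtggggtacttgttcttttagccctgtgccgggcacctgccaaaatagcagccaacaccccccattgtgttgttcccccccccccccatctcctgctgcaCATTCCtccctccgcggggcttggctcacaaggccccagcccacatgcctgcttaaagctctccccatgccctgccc
Mylpf: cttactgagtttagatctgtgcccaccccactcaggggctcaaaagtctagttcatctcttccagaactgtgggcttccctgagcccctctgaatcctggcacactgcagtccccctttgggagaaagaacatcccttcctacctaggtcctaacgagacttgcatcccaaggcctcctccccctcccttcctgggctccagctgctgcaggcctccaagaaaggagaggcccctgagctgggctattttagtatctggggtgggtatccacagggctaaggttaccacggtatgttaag
Myl7: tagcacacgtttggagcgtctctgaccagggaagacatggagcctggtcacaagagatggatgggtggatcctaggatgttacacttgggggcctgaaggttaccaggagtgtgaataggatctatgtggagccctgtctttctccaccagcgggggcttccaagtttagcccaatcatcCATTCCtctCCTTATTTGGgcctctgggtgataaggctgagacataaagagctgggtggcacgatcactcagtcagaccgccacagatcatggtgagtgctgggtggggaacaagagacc
The *Actc1* window holds a CArG box at positions -47 to -38 from the start and TATAAA at positions 33 to 38. The *Tnnt2* window holds CATTCC at positions -27 to -22. The *Myl7* window holds CATTCC at positions -70 to -65 and a CArG box at positions -61 to -52, and the *Mylpf* window holds none of the 4 motifs. The *Mylpf* start used by RefSeq lies inside the gene span of the count tables, which begins at 127208899.

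All 10 genes matched RefSeq, with 13 start sites among them. CATTCC was found in 5 of the 13 promoters (*Myh6*, *Myh7*, *Myl7*, *Tnnc1*, *Tnnt2*) and in 14.7% of all 32851 promoters of the same length. The CArG box was found in 2 of the 13, those of *Actc1* and *Myl7*, and in 1.63% of all promoters, and TATAAA in 2, those of *Actc1* and *Myh6*, and in 13.6%. The E-box CANNTG was found in 12 of the 13 promoters and in 72.3% of all promoters. AGATAA, bound by GATA factors, was found in 1 *Tnnt2* promoter and in 11.2% of all promoters. The NKX2-5 motif TNAAGTG was found in 1 *Myh7* promoter and in 11.5%. The MEF2 motif was found in none of the 13 and in 3.19% of all promoters, so no TATAAA match overlaps it. These are matches of letters in short windows.

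Between the cell types, the sarcomere genes moved in different directions. Of the 6 that could be fitted, *Tnnt2* and *Myl4* were higher in CPCCs and *Mylpf* was lower by edgeR's quasi-likelihood test at an adjusted p under 0.05, and *Tnni1*, *Myl7* and *Actn2* did not pass. The other 4 were listed only for CPCCs. Of the 15519 genes listed for CPCCs, 13001 were also listed for mESCs. The CPCC libraries were deeper, which makes the listing limit of 10 summed counts easier to reach. The 2 higher genes among 6 stand beside 31.6% of all 12471 genes tested that were called higher, and the 1 lower gene beside 29.6% called lower. In either direction 3 of 6 were called, beside 61.2% of all genes, and in 3 of 6 the libraries of the cell types did not overlap, beside 69.7%. The median log2 fold change of the 6 was 0.95, and that of all genes tested was 0.03.

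**Figure D1:**
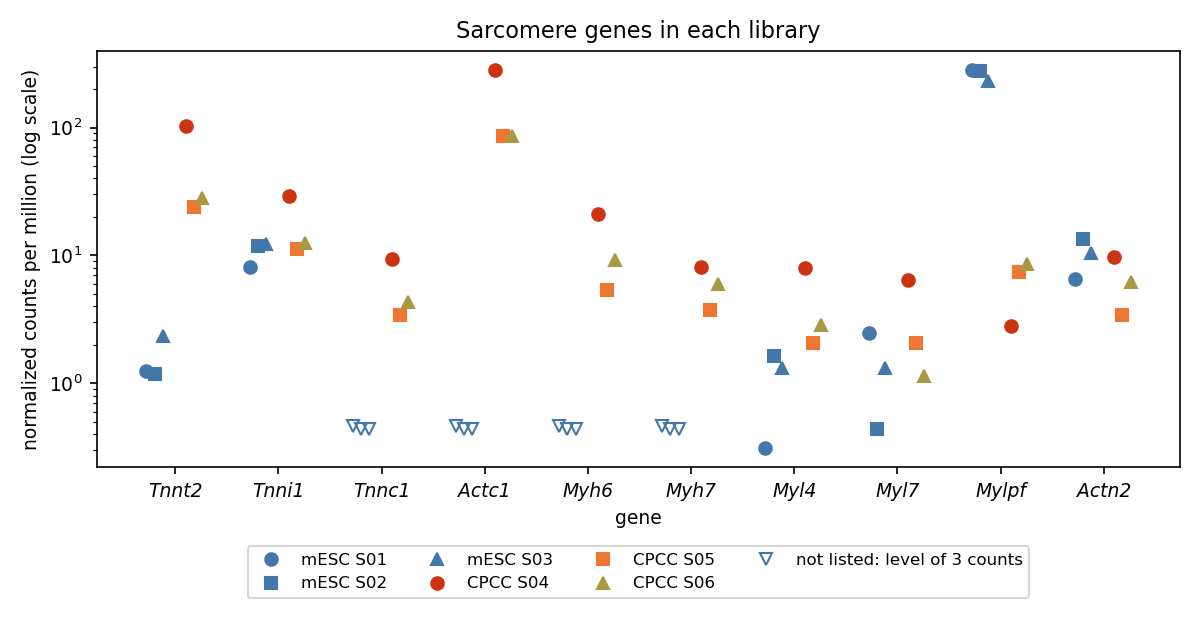
Normalized counts per 1000000 (CPM) of the 10 sarcomere genes (log scale) in each mESC library (blue) and each CPCC library (red, orange and olive), with open triangles at the level of 3 counts where the mESC table does not list a gene. *Mylpf* lies between 232.1 and 284.1 CPM in mESCs and under 10 CPM in CPCCs, while *Actc1* reaches 280.6 CPM in CPCC library S04.

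The troponin genes differed among themselves. *Tnnt2*, cardiac troponin T, is on chromosome 1 from 135836334 to 135852269 (GRCm38). The mESC libraries S01, S02 and S03 held 1.24, 1.18 and 2.34 CPM, whereas S04, S05 and S06 of the CPCCs held 102.6, 24.0 and 28.3 CPM. Every CPCC library was above every mESC library, and S04 was far above the other two. The log2 fold change was 5.01 (SE 0.68, adjusted p = 0.000259). Without S04 it was 4.04 (SE 0.37, adjusted p = 1.33e-06). The mESC values rest on 8, 8 and 16 counts.

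*Tnni1*, slow skeletal troponin I, which the embryonic heart also uses, lies close to *Tnnt2* on chromosome 1 (135799421 to 135810990). In mESCs it stood at 8.19, 11.8 and 12.4 CPM, in CPCCs at 28.9, 11.2 and 12.5 CPM. S04 lay well above the mESC range, S06 just above it and S05 within it, so the groups overlapped. The log2 fold change was 0.70 (SE 0.40, adjusted p = 0.161), and 0.14 without S04 (adjusted p = 0.708). *Tnnc1*, the troponin C of heart and slow muscle (chromosome 14, 31208312 to 31211712), was listed for CPCCs with 9.34, 3.40 and 4.36 CPM. Its CPCC mean was at least 12.72-fold higher than 3 counts per mESC library, and at least 8.65-fold without S04.

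Among the troponin isoforms, cardiac *Tnnt2* held 99.7%, 88.4% and 100% of the troponin T counts in S04, S05 and S06 (Wilson 95% interval for S05, 83.5 to 92.0), with *Tnnt1*, the slow skeletal isoform, as the rest. In mESCs *Tnnt2* held 29.6%, 44.4% and 66.7% of only 18 to 27 counts. *Tnni1* held all listed troponin I counts in CPCCs, where *Tnni3*, the adult cardiac isoform, is not listed. In mESCs *Tnni1* held 79.1%, 80.8% and 81.0%, with *Tnni3* at 2.16, 2.80 and 2.93 CPM. *Tnni3* in CPCCs was at least 7.84-fold lower than in mESCs, taking 3 counts per CPCC library. Skeletal *Tnnt3*, *Tnni2* and *Tnnc2* are in neither table.

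*Actc1*, cardiac alpha-actin, the actin of embryonic and adult heart thin filaments (chromosome 2, 114047284 to 114052876), was the most abundant of the 10 genes in CPCCs. It had 280.6, 85.4 and 85.6 CPM in S04, S05 and S06 and is not listed for mESCs. S04 stood alone and the other two libraries were nearly equal. The CPCC mean was at least 336.2-fold higher than 3 counts per mESC library, and at least 190.9-fold without S04. Cardiac actin was a small part of the actins even so. It held 1.46% (1.40 to 1.51), 0.534% (0.496 to 0.575) and 0.661% (0.615 to 0.709) of the counts of the 6 actin genes in the CPCC libraries. Among the cardiac, skeletal and smooth muscle actins it held 3.93%, 1.69% and 2.44%. *Acta2*, smooth muscle alpha-actin, had 6331, 4508 and 3070 CPM in CPCCs against 0.441 to 1.32 CPM in mESCs (log2 fold change 12.31, SE 0.46, adjusted p = 1.02e-06). No stretch of 100 bases of the *Actc1* transcripts was identical to one of another actin gene. Even so, the *Actc1* counts in S04, S05 and S06 (2823.25, 704.358 and 746.89) are not whole. Reads could be split with other genes, so its level, the bound and its shares are uncertain.

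The cardiac myosin heavy chain genes *Myh6* (alpha, the atrial and adult mouse ventricular motor) and *Myh7* (beta, the fetal ventricular and slow skeletal motor) lie side by side on the minus strand of chromosome 14, from 54941921 to 54966608 and from 54970688 to 54994550. *Myh6* had 21.2, 5.34 and 9.17 CPM in S04, S05 and S06, and *Myh7* had 8.16, 3.76 and 5.96 CPM. Both were highest in S04 and lowest in S05, and neither is listed for mESCs. The CPCC means were at least 26.55-fold (*Myh6*) and 13.31-fold (*Myh7*) above 3 counts per mESC library, and at least 16.19-fold and 10.85-fold without S04. *Myh6* held 72.2% of the counts of the pair in S04 (66.8 to 77.0), 58.7% in S05 (47.4 to 69.1) and 60.6% in S06 (52.1 to 68.5), so the intervals of the 3 libraries overlapped. Of the 100-base windows of the *Myh6* transcripts, 10.9% are identical in *Myh7*, and the counts of the pair in S04 are 212.883 and 82.1168, which are not whole and sum to 295. Reads that match both genes could be split between them, so their separate levels and this share are uncertain.

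The essential light chain gene *Myl4*, the atrial and embryonic isoform (chromosome 11, 104550663 to 104587217), stood at 0.309, 1.62 and 1.32 CPM in the mESC libraries, and in the CPCC libraries at 7.95, 2.06 and 2.87 CPM. The groups did not overlap, but S05 was close to S02, and the mESC values rest on 2, 11 and 9 counts. The log2 fold change was 1.97 (SE 0.76, adjusted p = 0.0469). The call was lost without S01 (adjusted p = 0.13), S02 (0.0654), S03 (0.0962) or S04 (0.202, log2 fold change 1.19). In CPCCs *Myl4* held 61.5%, 39.5% and 49.0% of the counts of the striated essential light chains, with *Myl3*, the ventricular and slow isoform, at 4.08, 3.03 and 2.75 CPM and *Myl1*, the fast skeletal isoform, at 0.895, 0.121 and 0.229 CPM.

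Of the striated muscle regulatory light chain genes, *Mylpf* passed the test, *Myl7* did not and *Myl2* was removed by the filter. *Mylpf*, the fast skeletal muscle isoform (chromosome 7, 127208899 to 127214288), stood at 284.1, 279.3 and 232.1 CPM in the mESC libraries, and in the CPCC libraries at 2.78, 7.40 and 8.60 CPM. Every mESC library was far above every CPCC library, and S04 was the lowest. The log2 fold change was -5.41 (SE 0.38, adjusted p = 8.04e-06), and -5.03 without S04. *Myl7*, the atrial isoform (chromosome 11, 5896637 to 5898783), stood at 2.47, 0.441 and 1.32 CPM in the mESC libraries, and in the CPCC libraries at 6.46, 2.06 and 1.15 CPM. Only S04 lay above the mESC range, and the log2 fold change of 1.20 (SE 0.82, adjusted p = 0.233) fell to 0.20 without S04 (adjusted p = 0.848).

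*Mylpf* made up 99.0%, 99.2% and 99.4% of the counts of the 3 striated regulatory light chain genes in mESCs. In CPCCs it made up 19.9% (14.1 to 27.2) in S04, 75.3% (64.9 to 83.4) in S05 and 79.8% (70.6 to 86.7) in S06. *Myl7* took 46.1% (38.1 to 54.3), 21.0% (13.5 to 31.1) and 10.6% (5.88 to 18.5) of them, so the makeup of S04 lay outside the intervals of the other two libraries. The CPCC shares rest on 81 to 141 counts in a library and the mESC shares on 1596 to 1914. Per exon length, *Myl7* held 60.2% in S04 and *Myl2*, the ventricular isoform, 21.1%.

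**Figure D2:**
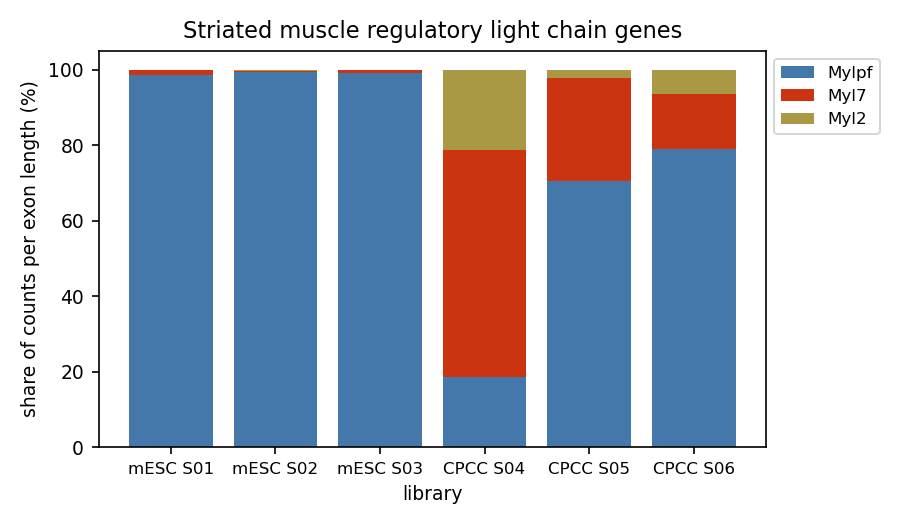
Share (%) of the counts per exon length of the regulatory light chain genes *Mylpf*, *Myl7* and *Myl2* in each library, stacked to the whole. *Mylpf* fills 98.7% to 99.4% of the mESC bars and 18.7%, 70.5% and 79.1% of the bars of S04, S05 and S06.

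The factors that form skeletal muscle were not listed beside *Mylpf* in mESCs. *Myod1*, *Myf5*, *Myf6* and *Pax7* are in neither table, and *Myog* and *Pax3* are listed only for CPCCs. Fast skeletal *Myh1*, *Myh2* and *Myh4* are also in neither table. Other skeletal muscle genes were listed for mESCs at low levels. In S01, S02 and S03 *Actn3* had 2.78, 2.06 and 2.93 CPM and *Mybpc2* 0, 1.62 and 0.439 CPM. *Neb* had 8.19, 8.83 and 5.41 CPM and *Ryr1* 2.78, 6.18 and 3.07 CPM. Among genes that are not among the 10, the profile most like that of *Mylpf* over the 6 libraries, by the root mean square difference of centred log2 CPM, was that of *Esrrb* (0.136), a pluripotency factor at 370.4, 357.6 and 350.1 CPM in the mESC libraries and, in the CPCC libraries, at 3.28, 9.82 and 13.2 CPM. *Nr0b1* (0.152), *Pramef12* (0.17), *Smtnl2* (0.201) and *Tex19.2* (0.236) came next. The next gene downstream of *Mylpf*, *Sept1*, ends 154 bases away on the opposite strand. It fell from 72.9 to 1.53 CPM (log2 fold change -5.59, SE 0.35, adjusted p = 4.59e-06). *Tbc1d10b*, 430 bases upstream on the opposite strand, fell by 0.92 on the log2 scale (adjusted p = 0.0016). These likenesses and neighbours were picked after the values of *Mylpf* had been seen.

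*Actn2*, the alpha-actinin of the sarcomeric Z-disc (chromosome 13, 12269427 to 12340733), stood at 6.49, 13.4 and 10.4 CPM in the mESC libraries, and in the CPCC libraries at 9.74, 3.40 and 6.19 CPM. The libraries of the cell types overlapped (log2 fold change -0.64, SE 0.45, adjusted p = 0.246). Without S04 it was -1.05 (adjusted p = 0.0558). Its paralogs of nonmuscle cells rose, *Actn1* by 2.29 (SE 0.33, adjusted p = 0.000356) and *Actn4* by 1.35 (SE 0.16, adjusted p = 0.000139) on the log2 scale. *Actn2* held 1.49%, 3.08% and 2.63% of the alpha-actinin counts in mESCs and 0.547%, 0.292% and 0.592% in CPCCs, with no overlap of the groups.

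**Figure D3:**
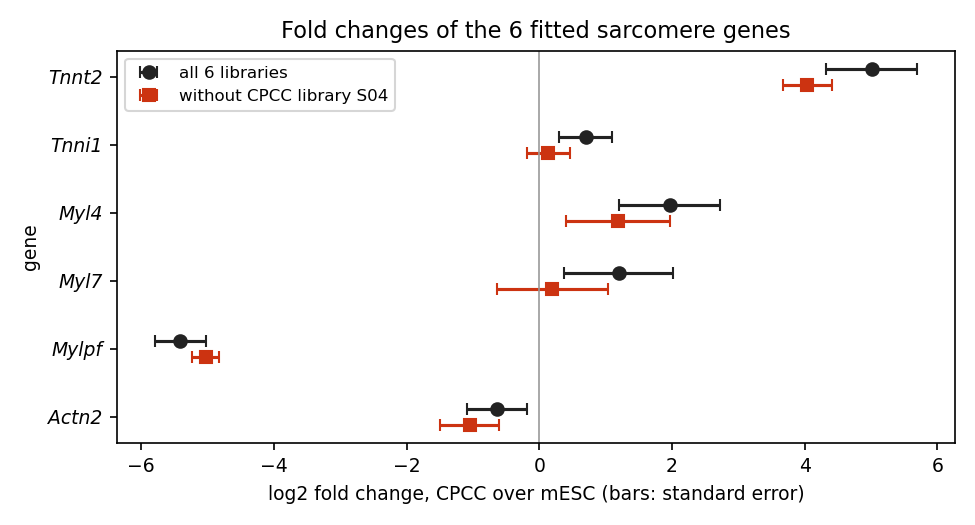
Log2 fold change of CPCCs over mESCs (points) with its standard error (bars) for the 6 sarcomere genes fitted, from all 6 libraries (black) and without CPCC library S04 (red). *Tnnt2* stays at 4.04 and *Mylpf* at -5.03 without S04, while *Tnni1* and *Myl7* move to 0.14 and 0.20.

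Per exon length, the order of the CPCC levels was *Actc1* at 102.2 CPM per kilobase (SD 76.5, n = 3), *Tnnt2* at 40.9 (SD 35.0), *Tnni1* at 13.8 (SD 7.77), *Tnnc1* at 7.90 (SD 4.43), *Mylpf* at 7.64 (SD 3.75), *Myl7* at 5.46 (SD 4.82), *Myl4* at 3.57 (SD 2.66), *Actn2* at 2.14 (SD 1.06), *Myh6* at 1.95 (SD 1.35) and *Myh7* at 0.944 (SD 0.349). Each pair of neighbours in this order differed by less than the larger of their SDs. Without S04 the means were 58.1 for *Actc1*, 20.7 for *Tnnt2*, 9.76 for *Mylpf*, 9.29 for *Tnni1*, 5.38 for *Tnnc1*, 2.72 for *Myl7*, 2.05 for *Myl4*, 1.59 for *Actn2*, 1.19 for *Myh6* and 0.770 for *Myh7*, which puts *Mylpf* ahead of *Tnni1* and *Tnnc1*. In mESCs *Mylpf* led at 323.8 CPM per kilobase (SD 35.1), followed by *Tnni1* at 8.46 (SD 1.78), *Actn2* at 3.35 (SD 1.15), *Myl7* at 2.39 (SD 1.73), *Tnnt2* at 1.25 (SD 0.519) and *Myl4* at 0.899 (SD 0.570). The step from *Mylpf* to *Tnni1*, and that from *Tnni1* to *Actn2*, exceeded these SDs, and the steps below did not.

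The CPCC libraries were not alike in these genes. S04 was the highest CPCC library in 9 of the 10, beside 39.9% of the 13828 genes with at least 30 CPCC counts, and in *Mylpf* it was the lowest. The ratio of S04 to the mean of S05 and S06 was 4.03 for *Myl7*, 3.92 for *Tnnt2*, 3.28 for *Actc1*, 3.23 for *Myl4*, 2.92 for *Myh6*, 2.45 for *Tnni1*, 2.41 for *Tnnc1*, 2.03 for *Actn2*, 1.68 for *Myh7* and 0.348 for *Mylpf*. A ratio of at least 2 was found in 8 of the 10, beside 7.83% of those genes, whose median ratio was 0.979. The labels do not divide the CPCC libraries, so this is a description of 1 library and has no test. S04 was also the lowest in 7 of 8 pluripotent cell markers and the highest in 7 of 8 smooth muscle markers. It was the highest in 3 of the 5 endothelial markers listed for CPCCs, among them *Cdh5* at 12.5 CPM against 1.33 and 1.60 CPM. The 8 fibroblast markers, of which 2 of 3 fitted were higher and 5 were listed only for CPCCs, summed to 6022 to 9228 CPM in CPCCs, and S04 was the highest in none of them. In bulk RNA, a larger part of cells with sarcomere transcripts and more such RNA in each cell cannot be told apart.

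**Figure D4:**
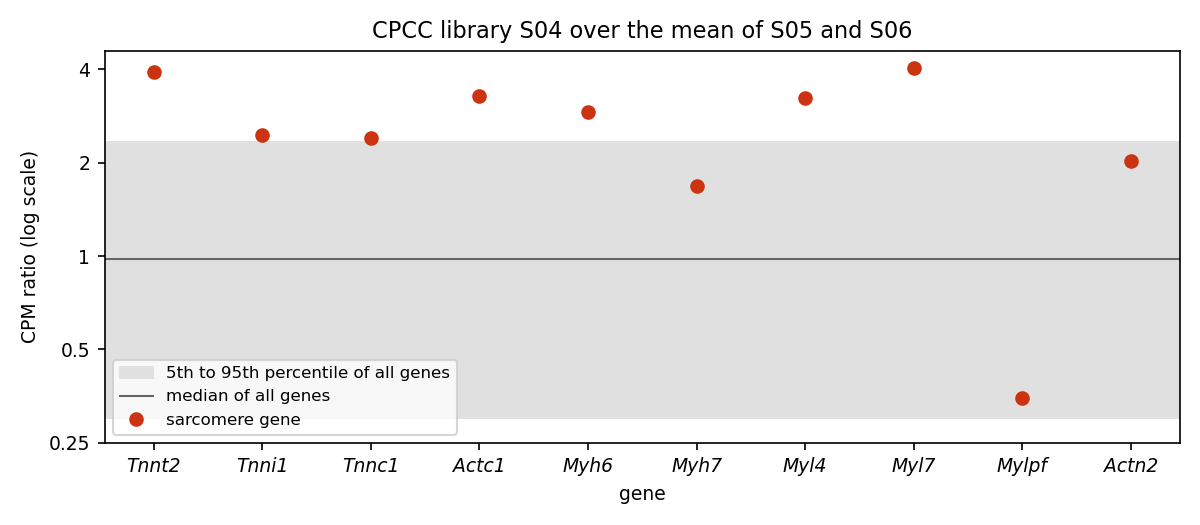
Ratio of the CPM in CPCC library S04 to the mean of S05 and S06 (log scale) for the 10 sarcomere genes, with the median (line) and the 5th to 95th percentile (grey, 0.3 to 2.33) of all genes with at least 30 CPCC counts. The 9 genes other than *Mylpf* lie above the median, and 7 of them lie above the grey band.

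Other genes of the contractile apparatus were counted on lists by role. Each is to be read beside the 31.6% of all genes tested that were called higher and the 29.6% called lower. Counts of genes listed only for CPCCs stand beside 13001 of the 15519 CPCC genes that are listed for mESCs too. Of 15 other thin filament genes, 6 could be fitted, and of these 2 were higher, 1 was lower and 3 did not pass (median log2 fold change -0.46). Tropomyosins *Tpm2* (log2 fold change 7, SE 0.38) and *Tpm1* (5.13, SE 0.28), which smooth muscle also uses, rose, and *Tpm3* fell by 0.51 (SE 0.14), a call lost without S02 (adjusted p = 0.0644). Another 4 were listed only for CPCCs, led by skeletal alpha-actin *Acta1* at 82.3, 59.4 and 91.7 CPM and then *Nebl* at 6.76, 2.67 and 5.73 CPM. Unlike *Actc1*, *Acta1* was not highest in S04. Of 18 other thick filament genes only *Myh3* could be fitted, and it did not pass (log2 fold change 0.31, adjusted p = 0.675). In that list 4 genes were listed only for CPCCs, led by the M-band gene *Myom1* at 22.0, 17.3 and 10.9 CPM, 4 only for mESCs, among them *Myh7b* at 3.09, 1.32 and 2.19 CPM, and 6 in neither table.

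Of 20 Z-disc and titin genes, 6 of the 9 fitted were higher, 2 were lower and 1 did not pass (median 3.60). The chaperone *Cryab* (7.46, SE 0.45), filamin C *Flnc* (6.16, SE 0.41) and nexilin *Nexn* (6.05, SE 0.37) rose most. Another 7 were listed only for CPCCs, led by *Ankrd1*, a stretch-responsive gene of the titin region, at 114.0, 33.7 and 31.6 CPM (at least 133.5-fold above 3 counts per mESC library, 72.95-fold without S04). The lower genes were titin *Ttn* (-1.46, SE 0.38, adjusted p = 0.00953) and myopalladin *Mypn* (-4.53, SE 0.75, adjusted p = 0.000859), named after their values were seen. *Ttn*, the giant spring of the sarcomere, stood at 75.7, 78.3 and 64.5 CPM in the mESC libraries, and in the CPCC libraries at 43.8, 12.7 and 22.7 CPM, again highest in S04 among CPCCs.

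Of 10 sarcomere assembly genes, *Bag3* (2.48, SE 0.22) and *Hspb8* (0.67, SE 0.20), partners in chaperone-assisted turnover of filamin, rose among 6 fitted (median -0.29), and 4 were listed only for CPCCs. The *Hspb8* call was lost without S01 (adjusted p = 0.0553), S02 (0.0684) or S05 (0.0737). Of the genes listed only for CPCCs, the small heat shock protein gene *Hspb7* had 7.56, 2.06 and 2.98 CPM in S04, S05 and S06. The myosin chaperone *Unc45b* had 4.27, 1.09 and 1.03 CPM there and *Smyd1* 3.78, 0.849 and 0.573 CPM. Of 14 calcium cycling genes, 3 of 7 fitted rose (median 0.97): the sodium-calcium exchanger *Slc8a1* (6.23, SE 0.65), the calcium channel *Cacna1c* (4.76, SE 0.65) and *Casq1* (1.64, SE 0.61, adjusted p = 0.0407). The libraries of the cell types overlapped in *Casq1*, and its call was lost without S01 (adjusted p = 0.082), S02 (0.0781), S03 (0.123), S05 (0.21) or S06 (0.0659). Junctophilin *Jph2* (23.1, 12.9 and 17.3 CPM), cardiac calsequestrin *Casq2* (13.3, 4.12 and 3.78 CPM) and phospholamban *Pln* (12.9, 3.76 and 3.32 CPM) led the 6 listed only for CPCCs. Of 11 output genes of differentiated heart muscle, *Bves* (2.63, SE 0.75, adjusted p = 0.0137) and *Nppb* (2.34, SE 0.83, adjusted p = 0.0349) were the 2 fitted, and both rose. The *Nppb* call was lost without S01 (adjusted p = 0.106), S02 (0.109) or S04 (0.137), and the *Bves* call without S02 (adjusted p = 0.0515). *Popdc2* was listed only for CPCCs with 22.3, 2.30 and 2.52 CPM, and 4 genes, among them the muscle creatine kinase gene *Ckm*, are in neither table.

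**Figure D5:**
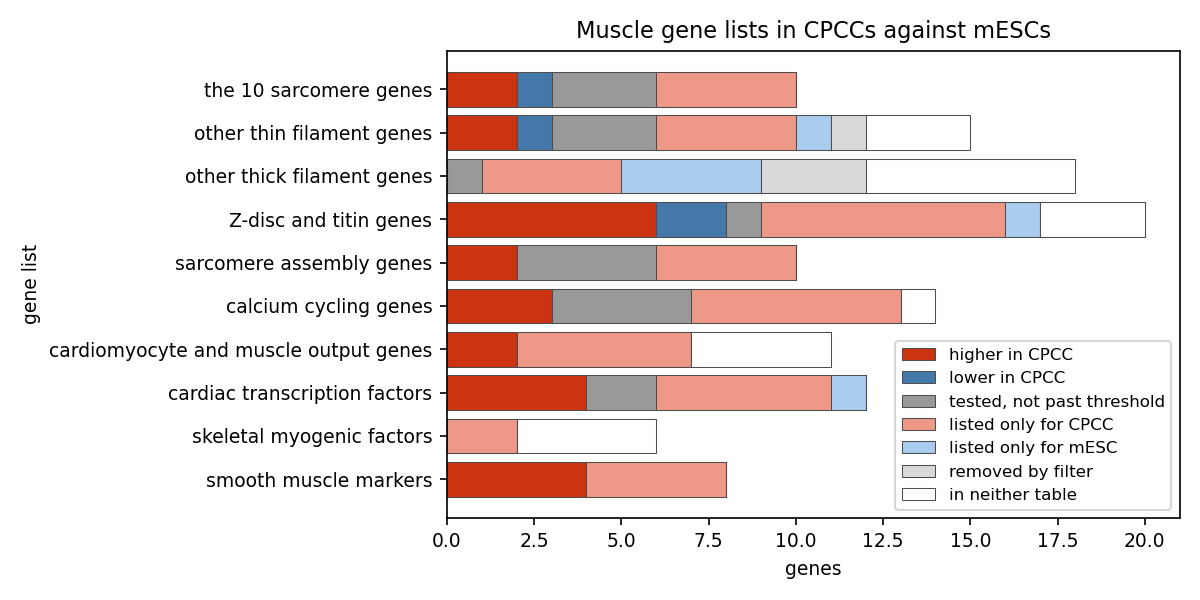
Number of genes (horizontal axis) on each list that were higher, lower or not past the threshold in CPCCs against mESCs, listed in only 1 table, removed by the filter or in neither table. Thick filament genes are mostly outside the test, while all 8 smooth muscle markers are higher or listed only for CPCCs.

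Of 12 cardiac transcription factors, 4 of 6 fitted rose and none fell (median 1.36): *Mef2a* (3.57, SE 0.51), *Tbx20* (2.72, SE 0.63), *Mef2d* (0.90, SE 0.18) and *Srf* (0.70, SE 0.19), the last of which binds the CArG box. *Mef2c* was listed only for CPCCs with 19.3, 9.94 and 12.8 CPM. *Mef2a* at 251.5, 101.1 and 74.6 CPM and *Tbx20* at 76.4, 27.3 and 17.9 CPM were highest in S04, as were the sarcomere genes other than *Mylpf*. Of 14 actin, actinin, myosin and tropomyosin genes of nonmuscle and smooth muscle cells, *Acta2* and *Actg2* included, 11 of 13 fitted were higher and 2 were lower (median 2.18), and the lower call of *Myh14* (adjusted p = 0.0326) was lost without any of S01 to S05 (adjusted p from 0.0667 to 0.107). Of the 8 smooth muscle markers, all 4 fitted rose (median 4.58) and the other 4 were listed only for CPCCs. The part of smooth muscle or fibroblast transcripts in the levels of the sarcomere genes was not tested.

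The genes whose centred log2 CPM profile was nearest to the mean profile of the 6 fitted sarcomere genes, over the 6 libraries, were *Fam126b* (root mean square difference 0.0848), *Immp1l* (0.0865), *Gk* (0.0943), *Napg* (0.0995) and *Hnrnph2* (0.114). Their log2 fold changes of 0.23 to 0.34 are smaller than those of *Tnnt2* and *Mylpf*, since the mean joins a gene that rose with one that fell. The profile nearest to *Tnnt2* alone was that of *Tspan2* (0.23), followed by *Phldb2* (0.286) and *Gucy1a2* (0.315).

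Overlapping annotation limits some of these values, since the tables' use of strand in counting is not given in the sources used here. *Tnnc1* lies inside the GENCODE span of *Nisch* on the opposite strand. In the gene spans of the count tables *Nisch* stops 1485 bases before *Tnnc1*, so there the genes do not overlap. *Nisch* had 362.8 CPM on average in mESCs, where *Tnnc1* is not listed, and 687.7 CPM in CPCCs. *Actc1*, *Myh6*, *Myh7* and *Myl4* overlap antisense transcripts, *A530058N18Rik* and *Mhrt* among them, that neither table lists. *Cdc27* starts 42 bases from the start of *Myl4* on the opposite strand, and the genes run away from each other. For *Tnnt2*, *Tnni1*, *Myl7*, *Actn2* and *Mylpf* no overlapping gene is annotated.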

How the data were processed

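Bulk RNA-seq of 3 mESC and 3 CPCC samples was made with the SMART-Seq v4 kit. For each cell type the authors deposited 1 table of estimated counts per gene, without normalization or allele split. The submitters' processing notes name STAR 2.7 and mm10. The counter and its strand setting are not given in the sources used here. Every listed gene has at least 10 counts over the 3 libraries of its table. The replicates are lines from separate blastocysts and their CPCCs.

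Counts were rounded. The 13001 genes in both tables were filtered with filterByExpr, which removed 530, and tested with edgeR 4.0.16 (R 4.3.3; quasi-likelihood with robust fitting, TMM, Benjamini-Hochberg adjustment over 12471 genes, threshold 0.05). CPM used the same library sizes. A gene missing from a table was set against 3 counts per library, on average 0.448 CPM in mESCs and 0.335 in CPCCs. Such bounds and the Wilson intervals cover counting error only, and an unlisted gene with fractional counts could sum to slightly over 9. The SE is the log2 fold change over the square root of F. Exon lengths and overlaps are from GENCODE M21, promoters from RefSeq. Centred profiles used log2(CPM + 0.5).

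The genes and lists were chosen with earlier results of these data known. Named were the 10 genes and their paralogs and, in each list, up to 3 genes with the largest change among those passing and up to 3 listed in 1 table with the highest CPM, plus the 5 genes nearest the mean profile. *Ttn*, *Mypn*, *Srf*, *Actn1*, *Actn4*, *Ckm*, *Myh14*, *Mybpc2*, *Neb*, *Ryr1* and the fast myosins were named beside this rule. So were the neighbours of *Mylpf*, the genes nearest *Mylpf* and *Tnnt2*, the skeletal factors and the cardiac markers. Alternatives were DESeq2 1.42.0, other normalizations, other filters, other fills of missing genes, and leaving out each library. On simulated counts of 13001 genes with 200 changed, for CPCC against mESC, edgeR recovered 87 of 102 genes changed 4-fold, with 6 false calls. In the real comparison 61.2% of genes were called, and error rates under so broad a change were not simulated.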

Additional observations from a re-analysis of the deposited data

How the results depend on the processing

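Over all genes, 7636 were called, 7896 by DESeq2, 7597 with upper-quartile normalization, 7509 without TMM, 7642 with library sizes over whole tables, 7607 without a filter, 6544 with at least 10 counts in every sample, 8850 with missing genes at 0 counts, 8980 with them at 3 counts, and 6521 to 7898 on leaving out 1 library. Of the sarcomere genes, 2 were called higher. With at least 10 counts in every sample there were 0, since only 3 genes were then tested and neither *Tnnt2* nor *Myl4* was among them. With missing genes at 0 or at 3 counts there were 6 of 10 tested, beside 36.4% and 34.7% of all genes called higher. The added calls were *Actc1*, *Myh6*, *Myh7* and *Tnnc1*, which are not listed for mESCs. Their mESC values in these fits are the fill itself, so these calls depend on the fill and are not a separate result. Leaving out 1 library gave 1 to 2, with 1 (*Tnnt2*) without S01, S02, S03 or S04. *Myl4* was the gene lost. No log2 fold change of the 6 fitted genes changed sign in any alternative, and *Tnnt2* and *Mylpf* passed in every alternative that tested them. Values of *Myl4*, *Myl7*, *Tnnt2* in mESCs and *Myl1* rest on few counts, and their shares are imprecise.

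No paired analysis was possible because the columns carry none of the labels' replicate numbers.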
